A study of Mus musculus with 9 samples.

Results

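The 10 genes described here mark GABAergic interneurons, the inhibitory nerve cells of the hippocampus, and were taken by name from a table of 31052 genes. They are Gad1, Gad2, Slc32a1, Sst, Pvalb, Vip, Lamp5, Npy, Cck and Reln, and all 10 had reads in at least 1 library. The study read nuclear RNA from wild-type (WT) mouse hippocampal cells labelled as pyramidal, in 5 libraries of place cells and 4 of silent cells. Each class was assigned by in vivo two-photon imaging during navigation, after which the nuclei were phototagged, isolated and made into SMART-Seq mRNA LP libraries, a kit for small inputs of polyadenylated RNA. The sources used here give no age, promoter of the tag or number of nuclei per library, and each title carries its own number after the word Mouse. Whether that number names an animal or a library is not stated, so p-values measure only the spread between these libraries.

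Interneurons make GABA from glutamate with the enzymes encoded by Gad1 and Gad2 and load it into vesicles with the transporter encoded by Slc32a1. Subclasses are told apart by further genes: Sst and Pvalb mark cells born in the medial ganglionic eminence, Vip marks cells of the caudal ganglionic eminence, and Lamp5, Npy, Cck and Reln mark further or overlapping subclasses. Several of these markers are not exclusive to interneurons, since pyramidal cells can also express Cck, and Cajal-Retzius cells express Reln.

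Levels are recovered reads per 1000000 recovered reads of a library (RPM). The libraries held between 14029127 and 22361832 recovered reads and between 13873 and 20928 detected genes, and 3 reads stood for 0.134 to 0.214 RPM. Across pairs of libraries, the correlation of log2(RPM + 1) over genes ranged from 0.607 to 0.845, which describes the libraries and is not a test. Silent replicates 1 and 4 and place replicate 3 lay farthest from the centre on the first 3 principal components of the genes tested (distances of 170 to 200.2, against 18.2 to 117 for the other 6), and the estimates were also computed without them. The pyramidal label was checked on Camk2a, a kinase subunit of excitatory neurons, and on Slc17a7, a vesicular glutamate transporter. Camk2a stood at 1015 ± 151 RPM in place (SD, n = 5) and 1085 ± 259 RPM in silent libraries (SD, n = 4). Slc17a7 stood at 470 ± 130 RPM in place (SD, n = 5) and 411 ± 81.7 RPM in silent libraries (SD, n = 4). Eif2s3y, a gene of the Y chromosome, had 353 to 782 RPM in the silent libraries and 687 RPM in place replicate 1, and was at 0 in the other place libraries. Xist, the RNA of the inactive X chromosome, had 772 to 1443 RPM in those other place libraries and 317 RPM in silent replicate 1, which thus held both transcripts. Every place library but replicate 1 thus lacked the Y-chromosome transcript that every silent library held. Sex was not in the fit, and differences by cell class and by sex cannot be told apart in these libraries. In bulk libraries, fewer cells of a type and less RNA per cell cannot be told apart.

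The promoters of 3 peptide genes are shown because Sst and Vip each peaked in 1 silent library and Npy had reads in the place libraries alone. Sst and Vip are textbook targets of CREB, a cyclic AMP-responsive factor that binds cyclic AMP response elements. Each line gives the 250 bases before the gene start, 5′ to 3′, from RefSeq on GRCm38.p6, with any match to TGACGTCA or TGACGTCT, on either strand, in capitals. Sst lies at chr16:23890845-23891094 on the minus strand, Vip at chr10:5638968-5639217 on the plus strand and Npy at chr6:49822460-49822709 on the plus strand.
Sst: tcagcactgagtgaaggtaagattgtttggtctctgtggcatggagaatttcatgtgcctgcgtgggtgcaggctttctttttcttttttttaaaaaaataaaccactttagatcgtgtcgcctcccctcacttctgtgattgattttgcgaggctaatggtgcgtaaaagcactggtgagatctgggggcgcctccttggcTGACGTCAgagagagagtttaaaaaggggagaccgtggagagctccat
Vip: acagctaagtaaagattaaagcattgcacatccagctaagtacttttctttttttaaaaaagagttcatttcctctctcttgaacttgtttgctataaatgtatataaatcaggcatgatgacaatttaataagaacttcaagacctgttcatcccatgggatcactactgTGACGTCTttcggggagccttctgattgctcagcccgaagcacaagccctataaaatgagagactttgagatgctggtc
Npy: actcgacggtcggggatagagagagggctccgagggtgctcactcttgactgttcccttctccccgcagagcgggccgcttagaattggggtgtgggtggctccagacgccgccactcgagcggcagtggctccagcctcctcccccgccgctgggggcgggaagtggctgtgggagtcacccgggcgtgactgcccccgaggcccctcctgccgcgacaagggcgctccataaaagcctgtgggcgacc
The match in Sst begins 48 bases before the gene start and that in Vip 79 bases before it. TGACGTCA was found in 508 of 32851 promoters of this length (1.55%) and TGACGTCT in 148 (0.451%). Among 12 promoters of the 10 markers, only Sst held the first and only Vip the second. Since both are textbook targets, their matches are background and not a result of these data. The Npy window held neither, which says only that these letters are absent from it.

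Reads of the 10 markers were found in 61 of 90 combinations of gene and library, and every one of the 61 rested on at least 3 reads. Gad1, Lamp5 and Cck were detected in all 9 libraries, a pattern shared by 61.6% of the 14142 genes that passed the filter on low values. The other 7 markers were detected in some libraries and at 0 in others. Place replicate 2 held 9 of the 10 markers, place replicate 1 and silent replicate 4 held 5 each, and the other 6 libraries held 7 each. Every library therefore had reads of several markers, although all carried the pyramidal label.

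**Figure D1:**
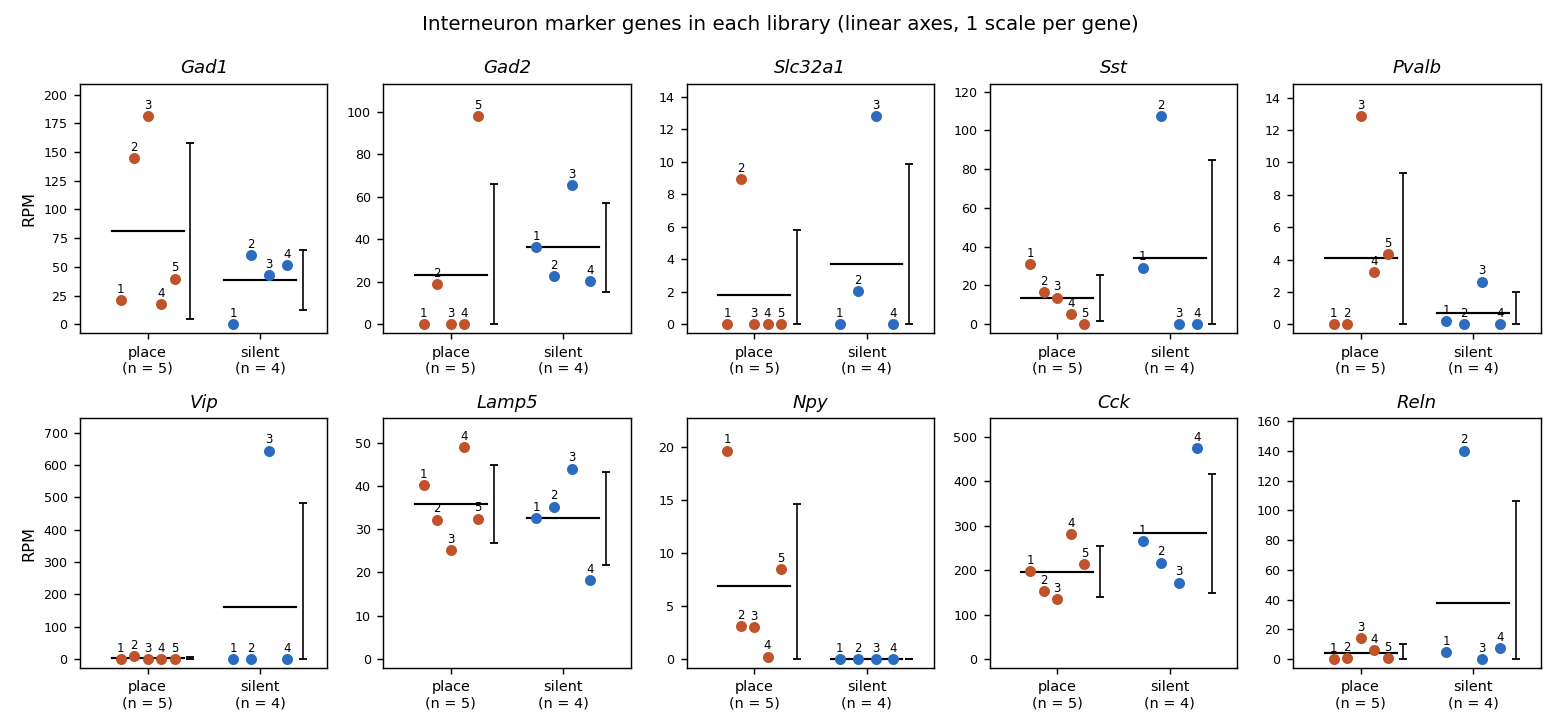
Level of each of the 10 interneuron markers in RPM (vertical axis, linear, with its own scale for each gene) in the 5 place and 4 silent libraries (horizontal axis). Points are libraries with their replicate number, horizontal lines are group means and the bars beside them are 1 SD, drawn no lower than 0; Vip shows 1 library at 645 RPM, and Npy is at 0 in all 4 silent libraries.

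The GABA-synthesis genes did not follow each other across libraries. Gad1 encodes the glutamic acid decarboxylase that makes most of the cell's GABA. In the place libraries, replicates 1 to 5, it was measured at 20.8, 145, 181, 17.8 and 39.7 RPM, and in the silent libraries, replicates 1 to 4, at 0.356, 59.95, 42.5 and 51.2 RPM. Place replicates 2 and 3 were high, silent replicate 1 was low with 5 reads, and the groups overlapped. The means were 80.9 ± 76.6 RPM in place (SD, n = 5) and 38.5 ± 26.4 RPM in silent libraries (SD, n = 4). On the log2(RPM + 1) scale the difference, place minus silent, was 1.36 (SE 1.001, 95% interval -0.74 to 3.46, limma adjusted p = 0.899). Without silent replicate 1 it was 0.051, and the silent mean was 51.2 ± 8.71 RPM (SD, n = 3).

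Gad2 encodes the second decarboxylase, which is concentrated at nerve terminals. Its levels were 0, 18.9, 0, 0 and 98.0 RPM in place replicates 1 to 5 and 36.4, 22.7, 65.4 and 20.2 RPM in silent replicates 1 to 4. It was thus detected in 2 of 5 place and 4 of 4 silent libraries, but its highest value was in place replicate 5. The means were 23.4 ± 42.5 RPM in place (SD, n = 5) and 36.2 ± 20.8 RPM in silent libraries (SD, n = 4). The log2(RPM + 1) difference was -2.87 (SE 1.34, 95% interval -5.69 to -0.06), and the limma p of 0.0457 became 0.895 after adjustment over 14142 genes. The unadjusted p rose to between 0.0524 and 0.112 when any 1 silent library or any 1 of the place replicates 1, 3 and 4, which had no Gad2 read, was left out. Without place replicate 5 the estimate was -3.98, and the place mean was 4.73 ± 9.45 RPM (SD, n = 4).

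Both decarboxylase genes had reads in 6 libraries, and Gad1 alone in place replicates 1, 3 and 4. Place replicate 3, the library highest for Gad1 with 3467 reads, had no Gad2 read. Slc32a1, the vesicular GABA transporter, was detected at 8.96 RPM in place replicate 2, at 2.04 RPM in silent replicate 2 and at 12.8 RPM in silent replicate 3, and was at 0 in the other 6. All 3 of these libraries also had Gad1 and Gad2 reads, whereas the remaining libraries with both enzymes, place replicate 5 and silent replicates 1 and 4, had none of the transporter. Slc32a1 did not pass the filter and was not tested. An annotated gene, Gm14205, overlaps it on the opposite strand, and since the strand setting of the counting is not given in the sources used here, reads of the pair cannot be told apart.

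Among markers of the medial lineage, Sst, which encodes the peptide somatostatin, was measured at 31.1, 16.5, 13.8, 5.37 and 0 RPM in place replicates 1 to 5. It was measured at 29.2, 107, 0 and 0 RPM in silent replicates 1 to 4. Silent replicate 2 stood above the rest with 2156 reads, and the groups overlapped. The log2(RPM + 1) difference was 0.22 (SE 1.46, 95% interval -2.85 to 3.29, limma adjusted p = 0.992), and its sign turned when any 1 of 4 libraries was left out (place replicates 1 and 2, silent replicates 3 and 4), with values of -0.25, -0.030, -0.76 and -0.76.

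Pvalb encodes parvalbumin, a calcium-binding protein of fast-spiking interneurons. Its levels were 0, 0, 12.9, 3.23 and 4.35 RPM in place replicates 1 to 5 and 0.214, 0, 2.64 and 0 RPM in silent replicates 1 to 4. Place replicate 3 was highest, and the value in silent replicate 1 rested on 3 reads. The log2(RPM + 1) difference was 1.12 (SE 0.90, limma adjusted p = 0.903), with overlapping groups.

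Vip encodes vasoactive intestinal peptide and was the marker most tied to 1 library. It was measured at 645 RPM in silent replicate 3, from 10503 reads, at 8.72 RPM in place replicate 2, from 150 reads, and at 0 in the other 7. Silent replicate 3 thus held 98.7% of the RPM summed over the 9 libraries, a share reached by 2.63% of the 17526 genes with a mean of at least 1 RPM. Vip did not pass the filter, which asks for 1 RPM in 4 libraries, and was not tested.

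Reln encodes reelin, a secreted protein of several interneuron subclasses and of Cajal-Retzius cells. Its levels were 0, 0.407, 14.0, 6.05 and 0.531 RPM in place replicates 1 to 5 and 4.56, 140, 0 and 7.11 RPM in silent replicates 1 to 4. Silent replicate 2, with 2811 reads, held 81.1% of the summed RPM, a share reached by 6.81% of the same 17526 genes. The log2(RPM + 1) difference was -1.59 (SE 1.32, limma adjusted p = 0.904). Without silent replicate 2 it was -0.27, and the silent mean went from 37.9 ± 68.2 RPM (SD, n = 4) to 3.89 ± 3.60 RPM (SD, n = 3). An annotated gene on the opposite strand, Gm10475, overlaps Reln, so reads of the pair cannot be told apart either.

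Npy, which encodes neuropeptide Y, was the only marker whose groups did not overlap. It was measured at 19.7, 3.14, 2.98, 0.228 and 8.49 RPM in place replicates 1 to 5 and at 0 in all 4 silent libraries. The lowest place value rested on 5 reads, close to the 0.214 RPM that 3 reads stand for in the shallowest silent library. Against that level, the place mean of 6.90 ± 7.73 RPM (SD, n = 5) was at least 32.3-fold higher. Without place replicate 1 the place mean was 3.71 RPM and the bound 17.3-fold. Of the 14142 genes tested, 1.22% had every place library above every silent one, 0.629% had the reverse order, and 0.17% had reads in all place and no silent libraries. Npy passed the filter through the place libraries alone, and its limma p of 0.0131, 0.894 after adjustment, is given as a description.

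Lamp5 and Cck were the steady members. Lamp5, a membrane protein of neurogliaform interneurons, was measured at 40.2, 32.2, 25.2, 49.0 and 32.4 RPM in place replicates 1 to 5 and at 32.6, 35.2, 44.0 and 18.2 RPM in silent replicates 1 to 4. Its highest level was 2.69 times its lowest, and the log2(RPM + 1) difference was 0.17 (SE 0.55, limma adjusted p = 0.982). Lamp5 did not rise with Gad1 across libraries (Pearson's r of log2(RPM + 1) = -0.27, Spearman's rho = -0.58). Which cells its reads came from was not tested.

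Cck, which encodes the peptide cholecystokinin, was measured at 199, 152, 135, 281 and 213 RPM in place replicates 1 to 5 and at 266, 217, 172 and 475 RPM in silent replicates 1 to 4. Silent replicate 4 was highest, and the highest level was 3.52 times the lowest. The means were 196 ± 57.4 RPM in place (SD, n = 5) and 283 ± 134 RPM in silent libraries (SD, n = 4). The log2(RPM + 1) difference was -0.47 (SE 0.31, 95% interval -1.12 to 0.19, limma adjusted p = 0.898).

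Across the comparison of place with silent libraries, 8 of the 10 markers were tested and limma called 0 of them at an adjusted p of 0.05, where it called 0 of all 14142 genes (0%). At an unadjusted p under 0.05, limma gave Gad2 among the markers, apart from Npy, whose p is no test because of how it passed the filter. Over all genes tested 771 (5.45%) had such a p, 4.12% higher and 1.33% lower in place libraries. The estimate was above 0 for 5 of the 8 and below 0 for 3, against 57.2% and 42.8% of all genes. The 5 include Npy, whose sign was fixed by its 0 reads in every silent library. The median estimate was 0.19 over the 8 and 0.13 over all genes tested. Limma adjusted p-values of the tested markers other than Npy ran from 0.895 to 0.992, and the lowest over all genes was 0.650. Without the 3 libraries that stood apart, a choice made after seeing the data, 4 estimates turned sign: Gad1 to -0.38, Sst to -0.43, Lamp5 to -0.055 and Cck to 0.094. Those of Gad2 (-2.58), Pvalb (0.19) and Reln (-2.59) kept theirs. The intervals of Gad1, Gad2, Sst and Reln each spanned several log2 units, so differences of that size could go undetected with these libraries.

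**Figure D2:**
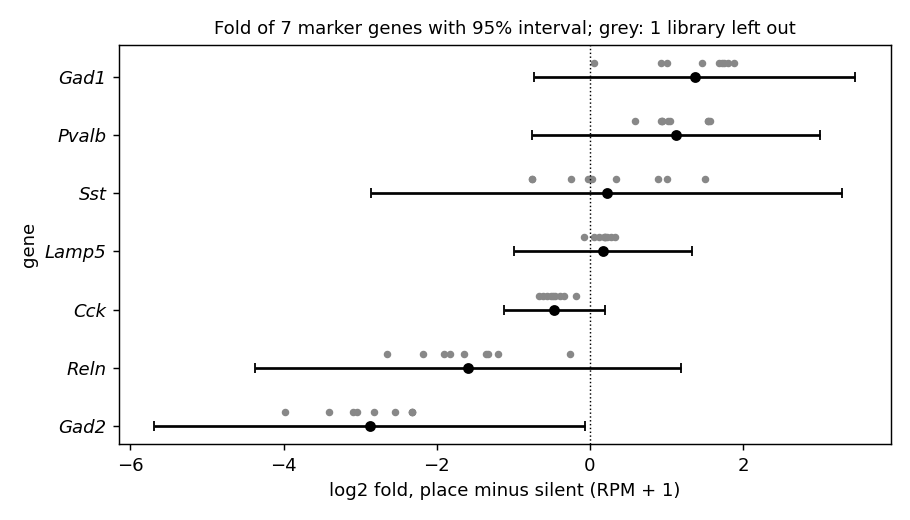
Difference, place minus silent, on the log2(RPM + 1) scale (horizontal axis) for the 7 tested markers other than Npy (vertical axis). Black points are estimates with 95% limma intervals and grey points are estimates with 1 library left out; the interval of Gad2, -5.69 to -0.06, lies below 0 throughout but not when most single libraries are left out, and the other 6 intervals include 0.

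Some subclass markers had their highest level in the same library. In silent replicate 2, where Sst and Reln were highest, 9 of the 10 detected genes of a medial eminence list had reads. Lhx6, a transcription factor of that lineage, was there at 6.53 RPM, Nxph1, a neurexophilin, at 10.3 RPM, and Crhbp, which binds corticotropin-releasing hormone, at 7.38 RPM. Other genes of the list were low there, Sox6 at 0.150 RPM, Grin3a at 0.0997 RPM and Tac1 at 0, and the summed level of the list, 259 RPM, was below that of 5 other libraries. Ndnf, a secreted factor that marks neurogliaform cells, had reads in this library alone, at 12.4 RPM. Trp73, a transcription factor of Cajal-Retzius cells, was at 10.2 RPM there and at 58.3 RPM in silent replicate 1, and the part of such cells in the Reln level was not tested.

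In silent replicate 3, where Vip and Slc32a1 were highest, 9 of the 11 detected genes of a caudal eminence list had reads. Adarb2, an RNA-editing family member that marks this lineage, was at 106 RPM and Cnr1, the cannabinoid receptor, at 396 RPM, each its highest level. Both had reads in all 9 libraries, and in place replicate 5 Adarb2 was at 80.6 RPM and Cnr1 at 246 RPM. Sncg, a synuclein, was at 9.45 RPM and Calb2, which encodes calretinin, at 8.04 RPM. In place replicate 5 Sncg was nearly as high, at 9.13 RPM, and Calb2 was higher, at 19.1 RPM. The summed level of the caudal list was 558 RPM in silent replicate 3 and 538 RPM in place replicate 3. Cnr1 alone gave 396 RPM of the first sum. Place replicate 3 had the highest level of 5 caudal genes (Prox1, Nr2f2, Id2, Egfr and Crh), though Crh was at only 0.157 RPM there. Prox1 was also on a dentate granule list, whose summed level was highest in the same library. Vip and Sst were found together in 1 library, place replicate 2.

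Place replicate 2 held the widest set of markers and also the most detected genes of any library, 20928, and the part of that breadth in the markers found was not tested. It had reads of all markers but Pvalb, of all 10 detected medial genes and of 7 of 9 GABAergic identity genes. Tac1, a tachykinin precursor, was found in this library alone at 40.4 RPM, as was Cort, the somatostatin-related peptide cortistatin, at 3.90 RPM. Crhbp was at 24.9 RPM, its highest level. Lhx6, Nxph1, Crhbp, Sox6, Grin3a, Ndnf, Sncg, Calb2, Cnr1, Nr2f2, Egfr, Crh, Trp73, Tac1 and Cort were chosen for mention after their values were seen.

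In place replicate 3, which had the highest Gad1 and Pvalb levels, Slc32a1, Gad2 and Vip had no reads. All 8 genes of an oligodendrocyte list were also highest in this library, with 3162 RPM summed over the list, against 182 to 3162 RPM over the place and 120 to 540 RPM over the silent libraries. The library also had the highest level of 5 of 6 astrocyte genes (2368 RPM summed, against at most 473 RPM elsewhere) and of 4 of 5 dentate granule genes (224 RPM, against at most 100.4 RPM). Its summed levels of 8 pyramidal genes, 1807 RPM, and of 5 CA1 genes, 397 RPM, were the lowest of the 9 libraries. The part of these cell types in its Gad1 level was not tested.

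**Figure D3:**
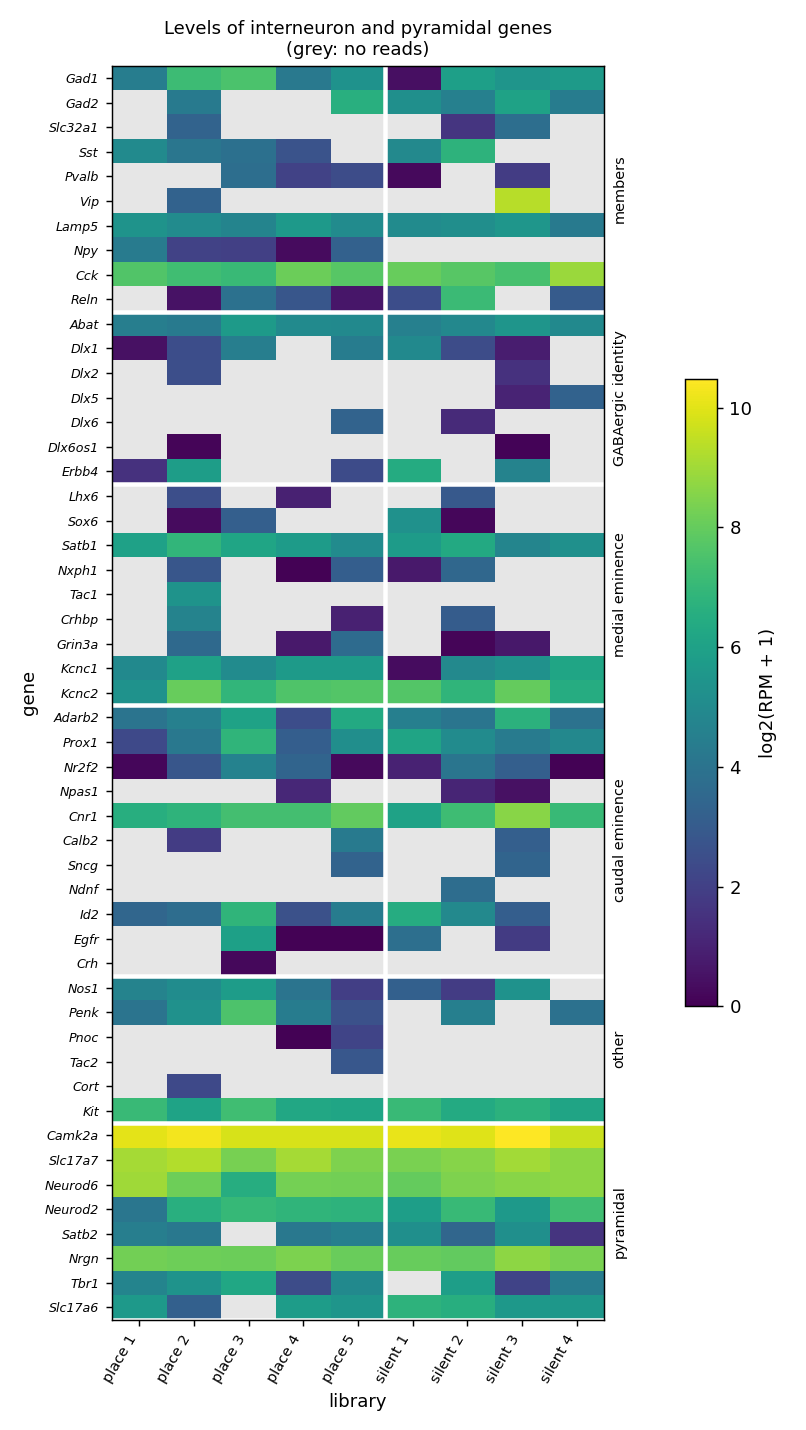
Level of the 10 markers, of genes of the GABAergic identity, medial eminence, caudal eminence and other interneuron lists, and of 8 pyramidal genes (vertical axis) in the 9 libraries (horizontal axis), coloured by log2(RPM + 1). Grey cells had no reads; Vip and Slc32a1 are brightest in silent replicate 3, Sst and Reln in silent replicate 2, and Camk2a is bright in every library.

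The lists of other interneuron genes held no call either, beside 0% of all genes. Of 9 GABAergic identity genes 4 were tested, 2 with an estimate above and 2 below 0. Erbb4, the neuregulin receptor, differed by -0.84 (SE 1.48) and Dlx1, a homeobox factor, by 0.30 (SE 1.26) on the log2(RPM + 1) scale.

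Of the medial list 4 of 10 detected genes were tested, again 2 above and 2 below 0. Kcnc1, a potassium channel of fast-spiking cells, differed by 1.30 (SE 0.91) and Satb1, a chromatin organizer, by 0.44 (SE 0.49). Of the caudal list 5 of 11 were tested, 2 above and 3 below 0. Prox1, a homeobox factor that dentate granule cells also express, differed by -0.77 (SE 0.85), Id2, an inhibitor of helix-loop-helix factors, by 0.57 (SE 1.21) and Adarb2 by -0.13 (SE 0.85). The median estimate was 0.10, 0.15 and -0.04 over the tested genes of the identity, medial and caudal lists, beside 0.13 over all genes.

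Of the 6 other interneuron peptide and enzyme genes 3 were tested. Penk, the enkephalin precursor, was measured at 15.1, 38.7, 187, 20.2 and 4.99 RPM in place replicates 1 to 5 and at 0, 21.7, 0 and 14.2 RPM in silent replicates 1 to 4. The groups overlapped, and the log2(RPM + 1) difference was 2.66 (SE 1.24), with a limma p of 0.0456 and an adjusted p of 0.895. Nos1, the neuronal nitric oxide synthase, differed by 1.71 (SE 1.17), and Kit, a receptor tyrosine kinase, by -0.01 (SE 0.37). Limma adjusted p-values of the 10 list genes named with an SE lay between 0.895 and 0.997.

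The genes most like Gad1 and Gad2 over the 9 libraries were sought among 11600 tested genes by Pearson's r of log2(RPM + 1), as a description without a test, since the points share libraries and depth. For Gad1 they included Mtus2 (r = 0.957, Spearman's rho = 0.80) and Wnt5a (r = 0.952, rho = 0.983), of 49 genes at or above 0.9. For Gad2 they were C1qb (r = 0.937, rho = 0.655), Metap2 (r = 0.910, rho = 0.712) and Mkx (r = 0.902, rho = 0.966), the only 3 genes at or above 0.9. Gad1 against Gad2 gave r = -0.14 (rho = -0.17). C1qb, a complement gene of microglia, was at 0 in the 3 place libraries in which Gad2 was at 0, as was Cx3cr1. Other listed microglia genes had reads in some of these libraries, such as C1qa at 4.92 RPM and Tmem119 at 11.5 RPM in place replicate 3. In silent replicate 1, where Gad2 was at 36.4 RPM, C1qa, Tmem119 and Cx3cr1 were at 0. A part of microglia in the Gad2 level was not tested.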

How the data were processed

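Nuclear RNA of 5 place and 4 silent libraries was grouped by title, with replicate numbers given in accession order. STAR, HTSeq and GRCm39 are named per the submitters' processing notes, and the normalization, annotation and strand setting are not stated there. The authors deposited a normalized read signal. Its values fitted reads multiplied by 4.5503 and divided by a trimmed-mean factor per gene across libraries. Dividing this out gave whole reads, within 0.05, in 30199 of 31052 genes (97.25%), and 94 more were recovered from the step between values alone. The other 759 genes were left out. Reads were also simulated from recovered genes with the same formula, and 1895 of 1901 genes came back exactly, which checks the inversion and not the formula. For genes with reads in 3 or 6 libraries, such as Slc32a1, Gad2 and Sst, the trim of the factor was itself read off the deposited values. Among 1000 genes with reads in every library, a step was found from the values alone in 939. It equalled that of the formula in 938.

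Reads were scaled to 1000000 per library (RPM). Genes with at least 1 RPM in at least 4 libraries, 14142 in all, were tested with limma 3.58.1 in R 4.3.3 (two-sided, intensity trend) on log2(RPM + 1), a scale that understates changes of low genes, with Benjamini-Hochberg adjustment and a threshold of 0.05. Named genes were all 10 markers, Camk2a, Slc17a7, Eif2s3y, Xist, up to 3 tested genes with the smallest p from each interneuron list, and the 3 genes most like Gad1 and Gad2 by Pearson's r, leaving out predicted-model symbols; a few genes that this rule names are not reported here. The members and lists were chosen with earlier results of these data known. Floors of 3 reads cover counting error only, and reads of a kit without molecular identifiers are not independent molecules. Alternatives varied the pseudocount, the filter, the scaling and the libraries.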

Additional observations from a re-analysis of the deposited data

Results flagged for a closer look

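In 7 of 19 groups of libraries looked at for 1 marker each, a single library lay far from the others by Dixon's criterion. In 3 of the 7, Slc32a1 and Vip in place replicate 2 and Vip in silent replicate 3, every other library of the group was at 0, so that any detected value would have met it, and the usual chance rate of about 1 group in 20 does not apply to groups with so many zeros. In the place libraries, Gad2 was at 98.0 RPM in replicate 5 with 18.9 RPM as the next value. In place replicate 2, Slc32a1 was at 8.96 RPM and Vip at 8.72 RPM, each with the other 4 place libraries at 0. In silent replicate 3, Slc32a1 was at 12.8 RPM with 2.04 RPM next, Pvalb at 2.64 RPM with 0.214 RPM next, and Vip at 645 RPM with the other 3 silent libraries at 0. In silent replicate 2, Reln was at 140 RPM with 7.11 RPM next.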

How the results depend on the processing

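Under 20 alternatives (19 for Pvalb and Npy, which a filter at 5 RPM removed) 0 markers passed the threshold. The estimates of Gad2, Pvalb and Reln kept their sign under all of them, and ranged from -5.87 to -1.59, from 0.19 to 2.39 and from -2.65 to -0.27. The sign of Npy was fixed by its 0 reads in every silent library, and its estimate ranged from 1.04 to 6.999. Sst turned to -0.23 with a pseudocount of 5 RPM, and ranged from -0.76 to 1.499 with 1 library left out. Lamp5 turned to -0.016 with the number of detected genes in the fit, and ranged from -0.080 (without silent replicate 4) to 0.33 with 1 library left out. With the number of detected genes in the fit, the Gad1 estimate kept its sign and went from 1.36 to 0.0034. Leaving out 3 libraries set apart by principal components, silent replicates 1 and 4 and place replicate 3, was chosen after seeing the data and turned Gad1 to -0.38, Sst to -0.43, Lamp5 to -0.055 and Cck to 0.094. The cause was not tested. Of all genes, 0 passed the threshold in the full fit and 0 to 2 with 1 library left out, the 2 (Ddx3y and Eif2s3y, of the Y chromosome) without place replicate 1, and 0 with limma's voom weights. Estimates above 0 over the interneuron lists went from 8 of 16 tested genes to 21 of 36 with no filter, and from 4 (without silent replicate 4) to 12 with 1 library left out; without place replicate 3 there were 5. Count models, edgeR and DESeq2, were planned for recovered reads and not run. Of the methods for reads, limma's voom alone was run. No paired analysis was possible because the labels give the groups no shared replicate numbers. At 0 reads, 3 reads set the limit of detection.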

Other observations

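Lists of glial genes also varied between libraries. Summed levels of the 6 astrocyte genes ran from 173 to 2368 RPM in the place and from 196 to 473 RPM in the silent libraries. Summed levels of the 6 microglia genes ran from 1.37 to 159 RPM and from 20.3 to 198 RPM. All 8 oligodendrocyte genes had an estimate above 0, place minus silent, as did 57.2% of all genes tested, with a median of 2.12 on the log2(RPM + 1) scale beside 0.13 over all genes tested, and limma called 0 of them at an adjusted p of 0.05 (4 at an unadjusted p under 0.05, beside 4.12% of all genes on the place-higher side). One of the 4, Opalin, was at no more than 0.0713 RPM in any silent library and passed the filter through the place libraries alone. The summed level of the 8 genes was 1360, 1972 and 3162 RPM in place replicates 1 to 3. In place replicates 4 and 5 it was 289 and 182 RPM, within the 120 to 540 RPM of the silent libraries.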
